A study of Ovis aries with 22 samples.

Results

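The 10 enzymes and chaperones of collagen hydroxylation and crosslinking that are described here were P4HA1, P4HA2, P4HA3, PLOD1, PLOD2, PLOD3, SERPINH1, LOXL2, LOXL3 and LOXL4. They were chosen by name and function, as rows of the deposited count tables, and no threshold on a measured value was applied. Earlier results of these data were known when they were chosen. All 10 were present among 26200 named genes, and all 10 passed the filter on low counts that left 14979 genes for testing. RNA was sequenced from the arterial sinus wall of sheep after a Ross procedure, in which the pulmonary root of an animal is moved into its own aortic position, where it is called the pulmonary autograft. Autograft sinus came from 3 operated sheep, 6 months after surgery. Native aortic sinus and native pulmonary sinus came from 4 other sheep, named D3 to D6 in the labels, which gave both tissues. Aortic sinus set beside pulmonary sinus compares the native walls of both positions. The sources used here state no strain, age or sex. The labels mark aortic sinus replicate 1 (animal D3) as Ross surgery, although the design text places native tissue in animals without an operation. Member calls that change without that animal are given with and without it. Results for other genes, for ratios and for shares are not given without that animal. The 3 sheep that gave autografts were not the sheep that gave native tissue, so surgery, new position and animal cannot be told apart.

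Collagen chains are modified inside the endoplasmic reticulum before they leave the cell. Prolyl 4-hydroxylases hydroxylate prolines that hold the triple helix together. Lysyl hydroxylases prepare lysines for sugars and crosslinks, and the chaperone HSP47, the product of SERPINH1, binds the folded helix until it is exported. Outside the cell, lysyl oxidases and lysyl oxidase-like enzymes convert lysines to the aldehydes from which crosslinks form. In the arterial wall, crosslinked collagen fibrils carry load at high stretch.

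Of the 10 members, 8 passed the test in no comparison, and the other 2 differed in opposite directions. P4HA3, a catalytic alpha subunit of prolyl 4-hydroxylase, was 5.66-fold higher in autograft than in pulmonary sinus and 3.50-fold higher than in aortic sinus. LOXL3, a lysyl oxidase-like enzyme, was at 0.659 of its aortic sinus level. Against pulmonary sinus LOXL3 was at 0.762 and did not pass the test (edgeR adjusted p = 0.0800). The calls against aortic sinus were fragile: those of P4HA3 and LOXL3 were each lost in 6 of 7 fits that left out 1 library, and that of P4HA3 also without animal D3. Over the same libraries, the summed RNA of the main fibrillar chains COL1A1, COL1A2 and COL3A1 was 19601 ± 5510 CPM in autograft (SD, n = 3), against 9338 ± 1015 CPM in aortic sinus and 8399 ± 2659 CPM in pulmonary sinus (SD, n = 4 each). CPM is the count of a gene scaled to the total of its library, with TMM scaling factors.

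Total counts lay between 17380599 and 20741334 per library. The least abundant members, P4HA3 and LOXL4, had at least 57 and 93 counts in every library, and every library gave at least 6735 counts for SERPINH1. A gene was called when its adjusted p was under 0.05 in edgeR's quasi-likelihood test with Benjamini-Hochberg adjustment over all 14979 genes. Adjusted p-values below are from that test unless another is named. The libraries of a group come from separate animals per the labels. These are whole-wall samples, in which fewer cells of a type and less RNA per cell cannot be told apart.

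The authors' deposited FPKM values, which are scaled to gene length, allow levels to be ordered between genes. SERPINH1 had the highest FPKM of the 10, at 289 ± 41.9 in autograft (SD, n = 3), 247 ± 8.78 in aortic sinus and 231 ± 33.5 in pulmonary sinus (SD, n = 4 each). PLOD2 came next with 52.0 ± 23.1, 40.7 ± 8.80 and 36.6 ± 17.1 FPKM in autograft, aortic sinus and pulmonary sinus. In autograft, P4HA1 followed at 39.4 ± 5.68 FPKM and PLOD1 came after it at 30.5 ± 4.93 FPKM. In both native sinuses PLOD1 stood next to PLOD2, at 33.5 ± 8.67 FPKM in aortic and 29.1 ± 6.91 FPKM in pulmonary sinus. The libraries of PLOD2, P4HA1 and PLOD1 overlapped as neighbours in these orders. PLOD3, P4HA2, LOXL2 and LOXL3 lay between 11.4 and 23.0 FPKM on average in every group. P4HA3 and LOXL4 stood at the bottom, with P4HA3 at 5.84 ± 2.37 FPKM in autograft, 2.05 ± 0.452 FPKM in aortic sinus and 1.38 ± 0.305 FPKM in pulmonary sinus. LOXL4 averaged 1.89, 1.89 and 1.56 FPKM in the same order of groups. In pulmonary sinus the libraries of these bottom members overlapped, whereas in autograft the lowest P4HA3 library, at 3.33 FPKM, lay above the highest LOXL4 library, at 2.95 FPKM.

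**Figure D1:**
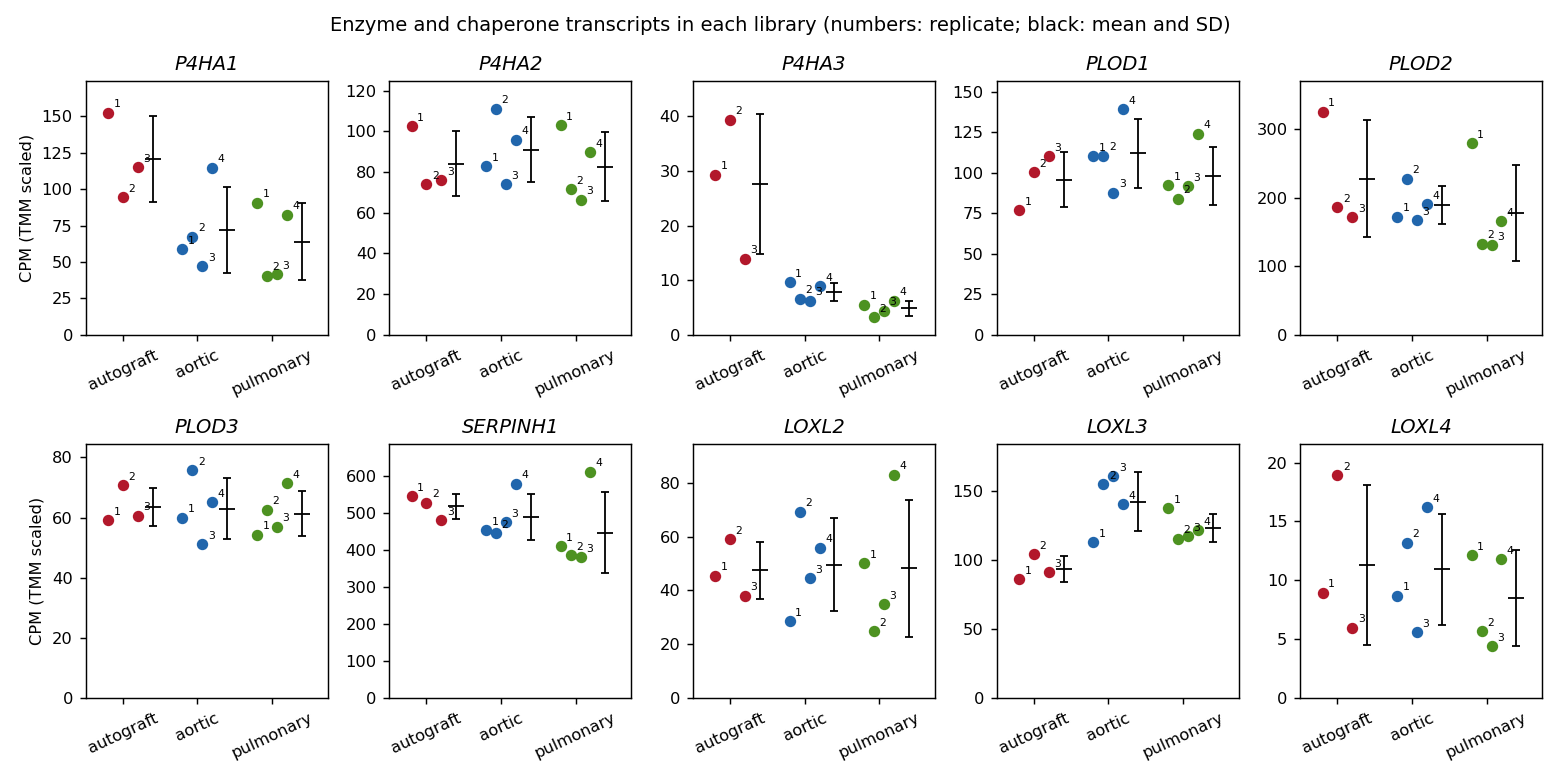
Expression of the 10 members in each library, as TMM-scaled CPM on a linear axis from 0, by group (autograft, aortic and pulmonary sinus), with the mean and SD of each group beside the points. The 3 autograft libraries of P4HA3, at 14.0 to 39.4 CPM, lie above every native library, of which the highest is 9.69 CPM, and those of LOXL3 lie below every native library.

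P4HA1, P4HA2 and P4HA3 encode the alpha subunits that carry the catalytic site of prolyl 4-hydroxylase. P4HA3 had 29.3, 39.4 and 14.0 CPM in the autograft libraries, against 9.69, 6.65, 6.26 and 8.86 CPM in aortic sinus and 5.54, 3.25, 4.40 and 6.29 CPM in pulmonary sinus. Every autograft library was above every native library, and autograft replicate 3 was the lowest of the 3. Against pulmonary sinus the log2 fold change was 2.50 ± 0.34 (SE), with an adjusted p of 0.00565 and a 95% interval of 1.76 to 3.24. Against aortic sinus it was 1.81 ± 0.33, with an adjusted p of 0.0281 and an interval of 1.08 to 2.53. The call against pulmonary sinus held in each of 7 edgeR fits that left out 1 library of either group, with adjusted p between 0.00458 and 0.0275. The call against aortic sinus held in 1 of 7 such fits, the one without autograft replicate 3 (adjusted p = 0.0127).

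That call of P4HA3 against aortic sinus was lost in edgeR without autograft replicate 1 (adjusted p = 0.0543) and without autograft replicate 2 (0.0921). It was also lost without aortic replicate 1 (0.0601), 2 (0.0567), 3 (0.0924) or 4 (0.0616), and without animal D3 altogether (0.0582). In the 7 fits its log2 fold change lay between 1.47 and 2.12.

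P4HA1, the most widely expressed alpha subunit, had 153, 94.6 and 115 CPM in autograft, against 58.9, 67.3, 47.1 and 115 CPM in aortic sinus and 90.6, 40.5, 41.6 and 82.4 CPM in pulmonary sinus. The autograft libraries were above all pulmonary libraries, while aortic replicate 4 lay within the autograft range. The log2 fold change of P4HA1 was 0.92 ± 0.35 against pulmonary sinus, with an edgeR adjusted p of 0.107, and 0.75 ± 0.35 against aortic sinus, with 0.232. Neither passed the test, and the interval against pulmonary sinus ran from 0.15 to 1.69.

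P4HA2, the alpha subunit best known from cartilage and bone, had 102, 74.0 and 75.9 CPM in autograft. It had 74.1 to 111 CPM in aortic sinus and 66.5 to 103 CPM in pulmonary sinus. The groups overlapped, and the log2 fold change of P4HA2 was 0.02 (95% interval -0.39 to 0.44) against pulmonary sinus and -0.11 (-0.53 to 0.31) against aortic sinus.

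The mix of the 3 alpha subunit RNAs was read as shares of their summed counts. Counts of P4HA2 made up 36.03%, 35.6% and 37.1% of the summed alpha subunit counts in autograft, against 54.8%, 60.1%, 58.1% and 43.7% in aortic sinus and 51.7%, 62.0%, 59.1% and 50.3% in pulmonary sinus. The P4HA2 share was below every native library in all 3 autografts and varied by an SD of 0.777 points among them. A share also depends on the other subunits, and the P4HA2 level itself did not differ. Its CPM overlapped between the groups, with log2 fold changes of 0.02 against pulmonary and -0.11 against aortic sinus. P4HA3 made up 10.3%, 18.9% and 6.82% in autograft, 3.59% to 6.39% in aortic sinus and 2.78% to 3.91% in pulmonary sinus. The P4HA3 share of every autograft library exceeded every native library. P4HA1 made up 51.7 ± 5.56% in autograft, 41.1 ± 7.49% in aortic sinus and 40.96 ± 5.70% in pulmonary sinus (SD, n = 3, 4 and 4), and its libraries overlapped. With 3 libraries against 4, a two-sided exact permutation test cannot go below p = 0.0286. That value was reached by P4HA3 in both comparisons and by P4HA2 against pulmonary sinus. After Benjamini-Hochberg adjustment over 27 share comparisons of the 3 enzyme families, 0 passed by the exact permutation test, and the lowest adjusted p was 0.257.

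**Figure D2:**
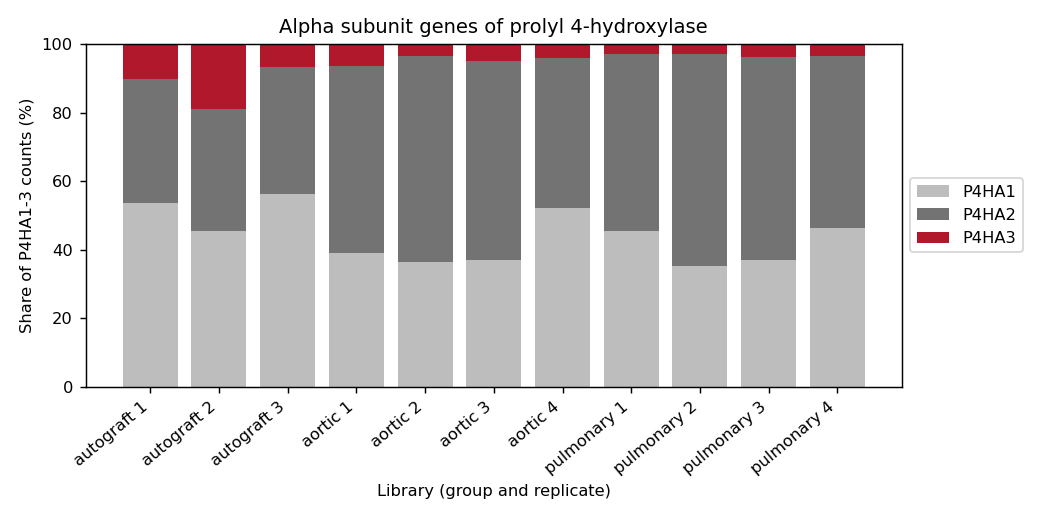
Share of P4HA1, P4HA2 and P4HA3 in their summed counts, in percent, for each library of autograft, aortic and pulmonary sinus. The P4HA2 share is 35.6% to 37.1% in the 3 autografts and 43.7% to 62.0% in the native libraries, while the CPM of P4HA2 overlaps between the groups.

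The lysyl hydroxylases are PLOD1, PLOD2 and PLOD3. PLOD2, which encodes the enzyme that hydroxylates lysines of the collagen telopeptides, had 326, 187 and 172 CPM in autograft, against 172, 228, 167 and 190 CPM in aortic sinus and 280, 133, 131 and 166 CPM in pulmonary sinus. Autograft replicate 1 and pulmonary replicate 1 were the high libraries of their groups, and the groups overlapped. PLOD2 had a log2 fold change of 0.36 ± 0.29 against pulmonary sinus (edgeR adjusted p = 0.423) and 0.27 ± 0.29 against aortic sinus (0.613). Without autograft replicate 1 the PLOD2 difference from pulmonary sinus was 0.01.

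PLOD1, which hydroxylates lysines within the helix, ranged from 76.8 to 110 CPM in autograft, 87.7 to 139 CPM in aortic sinus and 84.0 to 124 CPM in pulmonary sinus. Its log2 fold change was -0.03 (95% interval -0.44 to 0.37) against pulmonary sinus and -0.22 (-0.63 to 0.18) against aortic sinus. PLOD3, which also adds sugars to hydroxylysine, was the steadiest member. It ranged from 59.2 to 70.9 CPM in autograft, 51.2 to 75.7 CPM in aortic sinus and 54.2 to 71.3 CPM in pulmonary sinus. PLOD3 had a log2 fold change of 0.05 (-0.27 to 0.37) against pulmonary sinus and 0.01 (-0.31 to 0.33) against aortic sinus.

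SERPINH1 encodes HSP47, the collagen chaperone. It had 544, 526 and 480 CPM in autograft, against 452, 443, 474 and 578 CPM in aortic sinus and 409, 385, 379 and 610 CPM in pulmonary sinus. In each native group replicate 4, which is animal D6 in both, was the highest library and lay above all autografts. The log2 fold change of SERPINH1 was 0.21 ± 0.17 against pulmonary sinus (edgeR adjusted p = 0.434) and 0.09 ± 0.17 against aortic sinus (0.803). The intervals, -0.17 to 0.60 and -0.30 to 0.47, do not hold the log2 fold change of COL1A1 in the same comparisons. This is not particular to SERPINH1. Relative to the summed COL1A1, COL1A2 and COL3A1, the median log2 difference over all genes was -1.25 against pulmonary sinus and -1.05 against aortic sinus.

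Of the lysyl oxidase-like enzymes, LOXL3 had 85.8, 104 and 90.9 CPM in autograft, against 113, 155, 161 and 140 CPM in aortic sinus and 138, 115, 117 and 121 CPM in pulmonary sinus. All 3 autografts were below all 8 native libraries. The log2 fold change of LOXL3 was -0.60 ± 0.14 against aortic sinus, with an edgeR adjusted p of 0.0472 and a 95% interval of -0.90 to -0.30. Against pulmonary sinus it was -0.39 ± 0.14 with an adjusted p of 0.0800, which did not pass the test. DESeq2 gave that LOXL3 difference an adjusted p of 0.0458.

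The LOXL3 call against aortic sinus held without aortic replicate 1 (adjusted p = 0.0456) and without animal D3 (0.0363). It was lost in edgeR without autograft replicate 1 (0.104), 2 (0.0921) or 3 (0.0870), and without aortic replicate 2 (0.0928), 3 (0.130) or 4 (0.0847). LOXL3 fold changes (log2) in the fits that left out 1 library lay between -0.70 and -0.54.

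LOXL2, which crosslinks collagen IV and fibrillar collagens, varied widely within each group. It ranged from 37.9 to 59.0 CPM in autograft, 28.5 to 69.2 CPM in aortic sinus and 24.7 to 83.0 CPM in pulmonary sinus. LOXL2 had a log2 fold change of -0.02 (95% interval -0.87 to 0.83) against pulmonary sinus and -0.06 (-0.91 to 0.79) against aortic sinus. LOXL4, another member of that family, ranged from 5.96 to 18.9 CPM in autograft, 5.57 to 16.2 CPM in aortic sinus and 4.36 to 12.1 CPM in pulmonary sinus. Its log2 fold change was 0.41 (-0.66 to 1.49) against pulmonary sinus and 0.05 (-1.03 to 1.12) against aortic sinus. The LOXL4 intervals reach beyond 1 log2 unit, so a change of that size cannot be told from 0 with these libraries.

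**Figure D3:**
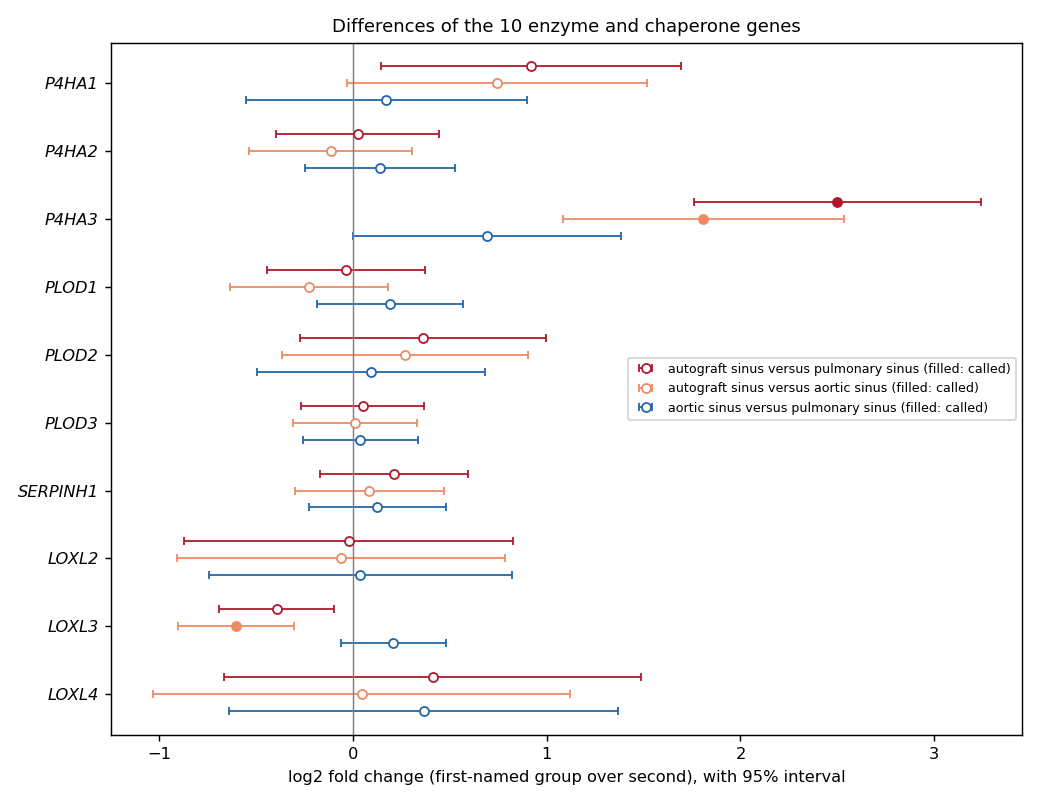
Log2 fold change of the 10 members from the edgeR fit, with 95% intervals, for autograft over pulmonary sinus, autograft over aortic sinus and aortic over pulmonary sinus. P4HA3 stands apart at 2.50 and 1.81, LOXL3 is below 0 in both autograft comparisons without an interval that reaches 0, and the other intervals include 0 except that of P4HA1 against pulmonary sinus and, narrowly, that of P4HA3 between the native sinuses. Filled points passed the test.

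In autograft against pulmonary sinus, 1 of 10 members was called, P4HA3, while 11.3% of all genes tested were called (6.05% higher and 5.29% lower). Libraries did not overlap for 3 of 10 members, P4HA1 and P4HA3 higher and LOXL3 lower, against 22.1% of all genes (10.9% higher and 11.2% lower). The median log2 fold change of the members was 0.13, and that of all genes was 0.00. In autograft against aortic sinus, 2 of 10 were called, P4HA3 higher and LOXL3 lower, while 2.38% of all genes were called (0.948% higher and 1.43% lower). The same members were the 2 whose libraries did not overlap there, against 20.6% of all genes (9.77% higher and 10.8% lower), and the median of the members was 0.03. These comparisons share the autograft libraries.

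Between the native walls, aortic against pulmonary sinus, edgeR called 0 of 10 members and 0% of all genes. At an unadjusted p under 0.05 there was 1 member, P4HA3, and 306 genes in all, and DESeq2 and limma-voom each called 0 of 10 members. P4HA3 averaged 7.86 ± 1.67 CPM in aortic sinus and 4.87 ± 1.33 CPM in pulmonary sinus (SD, n = 4 each), and was higher in aortic sinus in each of the 4 animals, at 9.69 against 5.54 CPM in D3, 6.65 against 3.25 CPM in D4, 6.26 against 4.40 CPM in D5 and 8.86 against 6.29 CPM in D6. Without a block this was a log2 fold change of 0.69 ± 0.31 with an edgeR adjusted p of 0.99995, and with the animal as a block it was 0.70 ± 0.19, also not called. All 10 members had a positive log2 fold change, with a median of 0.16, beside 50.8% of all genes and a median of 0.00, but 4 of the 10 changed sign in at least 1 alternative. No member's libraries were free of overlap, against 1.42% of all genes (0.714% higher and 0.701% lower).

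The substrates of these enzymes were read beside them. Of 15 tested fibrillar and associated collagen chains, 4 were higher in autograft than in pulmonary sinus and 0 were lower, beside 6.05% and 5.29% of all genes. COL1A1, a chain of type I collagen, had 5057, 4537 and 3711 CPM in autograft, against 1596 to 2547 CPM in aortic sinus and 1206 to 1932 CPM in pulmonary sinus. Its log2 fold change was 1.42 ± 0.21 against pulmonary sinus (edgeR adjusted p = 0.00713) and 1.13 ± 0.21 against aortic sinus (0.0281). The autograft libraries of COL1A1 stood above all native libraries, and the first call held in all 7 fits that left out 1 library, the second in 2 of 7. COL3A1, the type III chain, was higher than in pulmonary sinus by a log2 fold change of 1.32 ± 0.30 (adjusted p = 0.0243), and COL1A2, the other type I chain, by 0.96 ± 0.24 (0.0323).

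COL11A1, a minor fibrillar chain, had 14.96, 17.8 and 17.4 CPM in autograft, against 0.11 to 3.75 CPM in aortic sinus and 0.34 to 1.69 CPM in pulmonary sinus. It was higher than in pulmonary sinus by a log2 fold change of 4.20 ± 0.94 (edgeR adjusted p = 0.0218). Against aortic sinus, edgeR called 1 chain of 15 higher, COL1A1, and 0 lower, beside 0.948% and 1.43% of all genes. There 7 of the 15 had an unadjusted p under 0.05, beside 3446 of 14979 genes in all. Libraries did not overlap for 7 of the 15, against 20.6% of all genes. DESeq2 called 4 chains higher and 1 lower there, and limma-voom 2 higher and 0 lower. The share of all genes called by these tools is not given. Their counts, here and for the lists below, are therefore not read as results about a list. Leaving out 1 library ended the calls of COL1A2 and COL3A1 in 4 of 7 fits each, with the highest adjusted p, 0.0899 and 0.0685, without pulmonary replicate 3. The call of COL11A1 was lost in 3 of 7 fits, with the highest, 0.0633, without pulmonary replicate 2.

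Each member was set against the summed CPM of COL1A1, COL1A2 and COL3A1 in the same library, as a log2 ratio. The summed chains were 25909, 17164 and 15730 CPM in autograft, 8504 to 10642 CPM in aortic sinus and 5562 to 10687 CPM in pulmonary sinus. The ratio was lower in autograft for 9 of 10 members against both native sinuses, as it was for 92.5% of all genes against pulmonary and 94.6% against aortic sinus. Against pulmonary sinus the libraries did not overlap for P4HA2, PLOD1, PLOD2, PLOD3, SERPINH1, LOXL2 and LOXL3, which were lower, and for P4HA3, which was higher. Of all genes tested, 66.9% were lower and 1.17% higher without overlap on this ratio (68.1% in all), which is near the share among the members. The median difference of the 10 members was -1.07, beside -1.25 over 14591 genes with counts in every library.

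Against aortic sinus, 6 of 10 ratios were lower without overlap, while 67.7% of all genes were free of overlap (67.1% lower and 0.567% higher). These were P4HA2, PLOD1, PLOD2, PLOD3, SERPINH1 and LOXL3, and the median was -1.03 beside -1.05 over all genes. The SERPINH1 ratio differed by -1.004 against pulmonary sinus and -0.95 against aortic sinus, as the difference of mean log2 ratios. LOXL3 had the largest differences of the 10 in both comparisons, -1.64 and -1.63. P4HA1 had -0.25 and -0.24, with overlapping libraries. The ratio of P4HA3 was -10.14 to -8.77 in autograft, -10.64 to -9.91 in aortic sinus and -10.91 to -10.57 in pulmonary sinus, so it differed without overlap by 1.17 from pulmonary sinus and with overlap by 0.67 from aortic sinus. In two-sided exact permutation tests adjusted over 30 ratios, 0 passed. The lowest adjusted p was 0.0779, 11 ratios reached the smallest p that the test allows, and between the native sinuses 0 of 10 ratios were free of overlap, against 0.567% of all genes (0.254% lower and 0.314% higher).

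**Figure D4:**
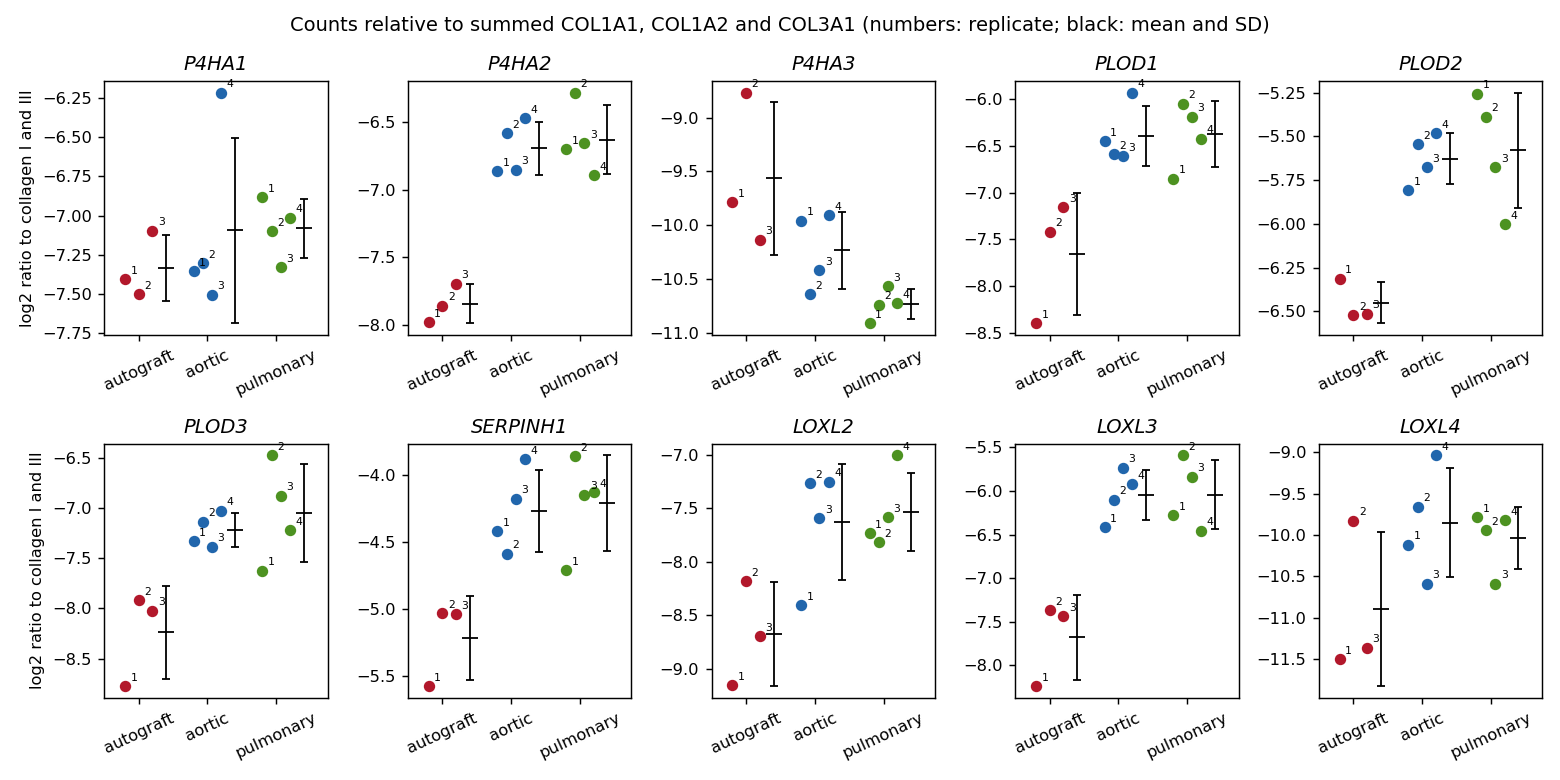
Log2 ratio of each member's CPM to the summed CPM of COL1A1, COL1A2 and COL3A1 in every library of autograft, aortic and pulmonary sinus. Most members sit about 1 log2 unit lower in autograft, P4HA1 overlaps with native tissue, and P4HA3 in autograft lies above pulmonary sinus.

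Other proteins of collagen folding, export, processing and crosslinking formed a list of 32 genes, of which 31 were tested. Against pulmonary sinus, 5 were higher in autograft (6.05% of all genes were) and 1 was lower (5.29%), and the median log2 fold change was 0.42. PPIB, the prolyl isomerase cyclophilin B, had 440, 429 and 465 CPM in autograft, 300 to 388 CPM in aortic sinus and 244 to 349 CPM in pulmonary sinus. Its log2 fold change against pulmonary sinus was 0.59 ± 0.15 (edgeR adjusted p = 0.0336). FKBP10, a collagen chaperone that works with lysyl hydroxylase 2, was higher by 0.57 ± 0.14 (0.0284). KDELR2, a receptor that returns proteins to the endoplasmic reticulum, was higher by 0.41 ± 0.12 (0.0473).

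PCOLCE, which enhances removal of the procollagen C-propeptide, had 663, 698 and 528 CPM in autograft, 252 to 426 CPM in aortic sinus and 139 to 434 CPM in pulmonary sinus. Its log2 fold change against pulmonary sinus was 1.22 ± 0.32 (edgeR adjusted p = 0.0368). ADAMTS3, a procollagen N-proteinase, was higher by 1.23 ± 0.35 (0.0439), while ADAMTS14, another N-proteinase, was lower by -1.78 ± 0.50 (0.0457), at 1.18 CPM in autograft and 4.05 CPM in pulmonary sinus on average. All 6 calls depended on the libraries used. Leaving out 1 library kept PPIB, FKBP10, PCOLCE and ADAMTS14 in 2 of 7 fits each and ADAMTS3 and KDELR2 in 1 of 7. The highest adjusted p was 0.0899 for PPIB, 0.0807 for FKBP10, 0.0978 for PCOLCE, 0.110 for ADAMTS3 and 0.131 for KDELR2, each without pulmonary replicate 3, and 0.119 for ADAMTS14 without pulmonary replicate 2.

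P4HB, the shared beta subunit of prolyl 4-hydroxylase, did not pass the test, with a log2 fold change of 0.38 ± 0.12 (edgeR adjusted p = 0.0599) against pulmonary sinus and 0.15 ± 0.12 (0.479) against aortic sinus. LOX, the founding lysyl oxidase, had 35.1, 15.3 and 24.2 CPM in autograft, against 10.3 to 19.3 CPM in aortic sinus and 7.14 to 29.3 CPM in pulmonary sinus. The groups overlapped, with a log2 fold change of 0.54 ± 0.46 against pulmonary sinus. LOXL1, best known for elastic fibres, had 0.23 ± 0.21. Against aortic sinus edgeR called 0 of 31 partners, and 9 had an unadjusted p under 0.05, beside 3446 of 14979 genes in all. The median was 0.34. DESeq2 called 3 there, 2 of them higher, and limma-voom 0. Between the native sinuses edgeR, DESeq2 and limma-voom called 0, with 1 at an unadjusted p under 0.05, beside 306 of 14979 genes.

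**Figure D5:**
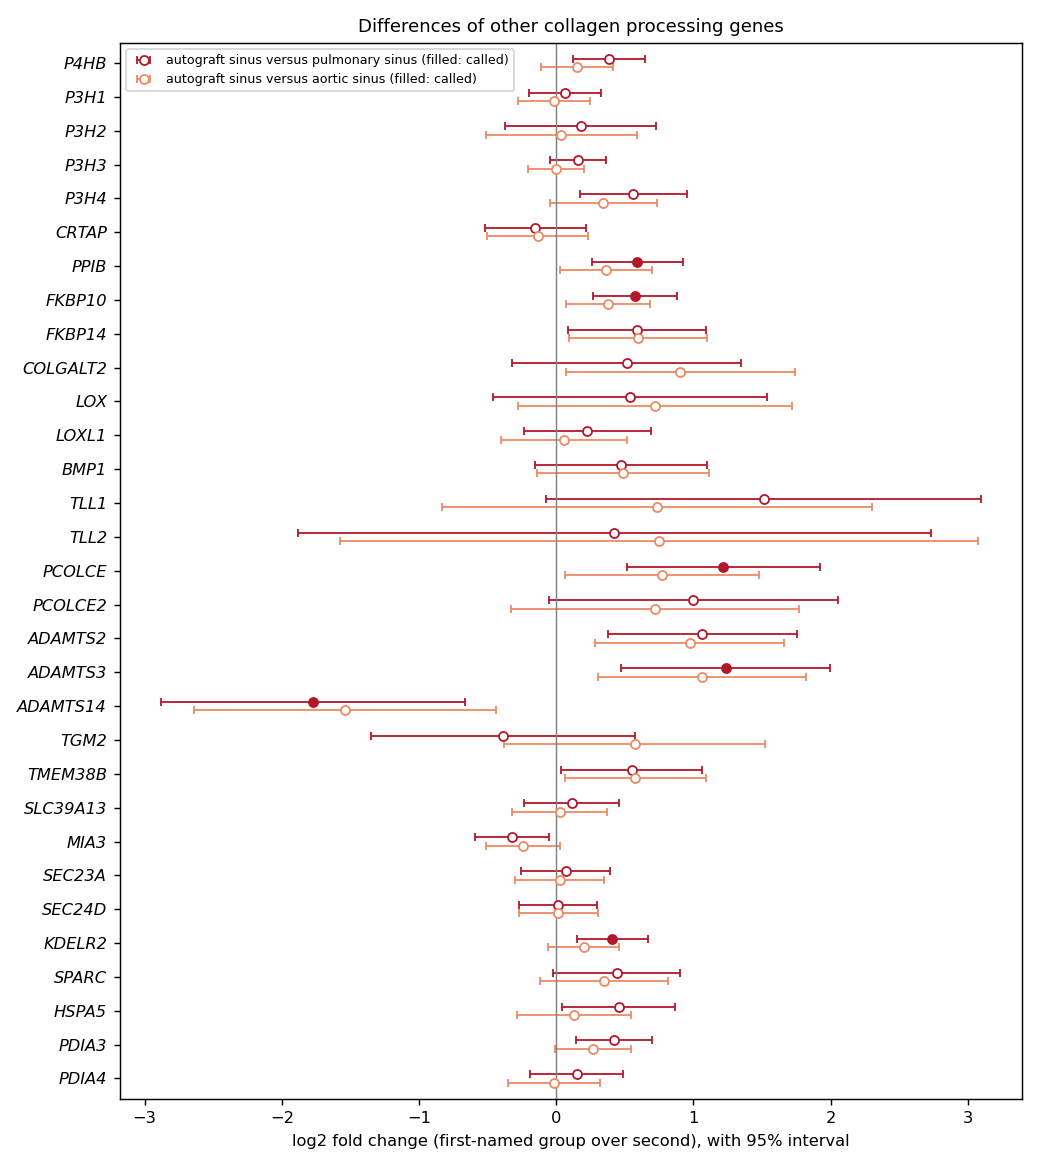
Log2 fold change with 95% intervals of the 31 tested collagen processing partners from the edgeR fit, autograft over pulmonary sinus and autograft over aortic sinus, with called genes as filled points. Filled points are seen against pulmonary sinus only, from ADAMTS14 at -1.78 to ADAMTS3 at 1.23.

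Genes around these enzymes were read from 3 further lists. The hypoxia response list was included because P4HA1, P4HA2 and PLOD2 are known targets of hypoxia-inducible factors in other mammals. Of its 23 genes, 2 were higher in autograft than in pulmonary sinus and 0 lower, beside 6.05% and 5.29% of all genes. NDRG1, a stress response gene, was higher by a log2 fold change of 1.39 ± 0.28 (edgeR adjusted p = 0.0167) and HIF1A, the factor's oxygen-regulated subunit, by 0.88 ± 0.24 (0.0412). NDRG1 had 39.5, 34.9 and 34.8 CPM in autograft, 13.5 to 26.0 CPM in aortic sinus and 7.59 to 18.5 CPM in pulmonary sinus, without overlap. The list's median was -0.01, and 11 of the 23 log2 fold changes were positive. At an unadjusted p under 0.05 there were 10 of the 23, against 4588 of 14979 genes in all. LDHA, which makes lactate (-0.16 ± 0.17, edgeR adjusted p = 0.571), did not pass the test. Nor did PDK1, which inhibits pyruvate dehydrogenase (-0.01 ± 0.15, 0.965). LDHA and PDK1 do not stand for the other metabolic genes of the list. Against aortic sinus edgeR called 0 of 23, with 8 at an unadjusted p under 0.05, beside 3446 of 14979 genes. DESeq2 called 2 there and limma-voom 0. The call of HIF1A held in 2 of 7 fits that left out 1 library and that of NDRG1 in 6 of 7, with the highest adjusted p 0.125 for HIF1A without autograft replicate 2 and 0.0509 for NDRG1 without pulmonary replicate 3.

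Hydroxylases need iron, ascorbate and 2-oxoglutarate, and lysyl oxidases need copper. Of 12 tested genes that transport, store or metabolise these, 2 were higher in autograft than in pulmonary sinus, beside 6.05% of all genes. FTL, the ferritin light chain that stores iron, had 105, 142 and 108 CPM in autograft, 49.6 to 65.2 CPM in aortic sinus and 35.8 to 53.5 CPM in pulmonary sinus. Its log2 fold change was 1.37 ± 0.16 against pulmonary sinus (edgeR adjusted p = 0.00420), which held in 7 of 7 fits that left out 1 library. Against aortic sinus it was 1.003 ± 0.16 (0.0241), which held in 5 of 7 and was at its highest, 0.0830, without aortic replicate 3. TFRC, the transferrin receptor, was higher than in pulmonary sinus by 0.68 ± 0.19 (0.0462), which held in 2 of 7 and reached 0.123 without pulmonary replicate 3. The copper carriers ATP7A, SLC31A1 and ATOX1 did not pass in either comparison.

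Of 11 TGF-beta ligands and target genes, 1 was higher in autograft than in pulmonary sinus, beside 6.05% of all genes. POSTN, which encodes the matrix protein periostin, had 2916, 1017 and 939.6 CPM in autograft, 316 to 719 CPM in aortic sinus and 366 to 772 CPM in pulmonary sinus, and a log2 fold change of 1.67 ± 0.42 (edgeR adjusted p = 0.0318). The POSTN call held in 3 of 7 fits that left out 1 library, and the highest adjusted p was 0.102 without autograft replicate 1. Against aortic sinus edgeR called 0 of 11, with 6 at an unadjusted p under 0.05, beside 3446 of 14979 genes. DESeq2 called 3 there and limma-voom 0.

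Markers of cell types in the wall differed between the groups as well. For comparison with the marker counts below, edgeR called 6.05% of all genes higher and 5.29% lower against pulmonary sinus. Against aortic sinus these shares were 0.948% and 1.43%. An unadjusted p under 0.05 was found for 4588 of 14979 genes against pulmonary sinus and 3446 against aortic sinus. No share of all genes is given for DESeq2 or limma-voom. Contractile smooth muscle markers summed to 24635 to 48482 CPM in autograft, 50128 to 70820 CPM in aortic sinus and 52259 to 85195 CPM in pulmonary sinus, and 4 of 8 were lower in autograft than in pulmonary sinus. MYH11, the smooth muscle myosin that defines the wall's main cell type, averaged 7415 CPM in autograft, 15064 CPM in aortic sinus and 18298 CPM in pulmonary sinus. Fibroblast and adventitia markers summed to 11151 to 14392 CPM in autograft, 5724 to 7456 CPM in aortic sinus and 2878 to 9132 CPM in pulmonary sinus, and 4 of 11 were higher than in pulmonary sinus. T and NK cell markers summed to 41.7 to 54.5 CPM in autograft, 6.34 to 11.4 CPM in aortic sinus and 2.25 to 7.34 CPM in pulmonary sinus, and 8 of 9 were higher than in pulmonary sinus. CD3D and CD3G, which define T cells, had 0 counts in pulmonary replicate 2, as had CD3G in pulmonary replicate 3.

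Macrophage markers summed to 1122, 814 and 191 CPM in the autograft libraries, 133 to 380 CPM in aortic sinus and 68.1 to 299.9 CPM in pulmonary sinus, with 4 of 9 higher than in pulmonary sinus. Endothelial markers summed to 178, 1572 and 916 CPM in autograft, 242 to 575 CPM in aortic sinus and 117 to 410 CPM in pulmonary sinus, with 2 of 7 higher. For adipocytes 1 of 7 was higher and 1 lower, for cardiomyocytes 1 of 6 was lower, and for chondrocytes edgeR called 0 of 6, with 2 at an unadjusted p under 0.05, 2 by DESeq2 and 0 by limma-voom. Against aortic sinus, 2 of 8 contractile markers were lower, beside 1.43% of all genes. There 2 of 11 fibroblast and 5 of 9 T and NK cell markers were higher, beside 0.948% of all genes. In that comparison edgeR called 0 of 9 macrophage markers (5 at an unadjusted p under 0.05, 3 by DESeq2, 0 by limma-voom) and 0 of 7 endothelial markers (3, 0 and 0). The part of cell makeup in the differences of P4HA3 and LOXL3 was not tested.

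The genes most like the called members over the 11 libraries were found by the root mean square difference of centred log2 CPM among 13602 genes with a mean of at least 1 CPM. For P4HA3, whose own profile had a root mean square of 1.05 log2 units, these were ITGB7, an integrin subunit of lymphocytes, at 0.32, BANK1, a B cell scaffold protein, at 0.33, and MMP2, a gelatinase that cleaves denatured collagen, at 0.34. For LOXL3, with a root mean square of 0.28, they were SYNC at 0.14, POLR2A, the largest subunit of RNA polymerase II, at 0.15, and PEA15 at 0.15. These likenesses are a description, since the profiles share libraries and group differences.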

How the data were processed

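Per the labels' protocols, total RNA was taken up in TRIzol and a TruSeq kit made the libraries. The tools in the submitters' processing notes are featureCounts 1.5.3, STAR 2.5.2b, Bowtie2 2.3.3.1 and cutadapt, whose roles are not stated there. No source used here states the genome build, annotation or strand setting, and reads shared by overlapping genes or by near-identical copies cannot be separated. The authors deposited raw counts per gene for each of 2 runs of 11 libraries, and the deposited FPKM values are the authors' own, scaled before deposit by steps that no source used here states. The counts of both runs were added, since runs of a library differed by a chi-square per gene of 1.38 to 1.51, against 30.1 to 105 between libraries of a group. The nameless row of each table, at most 0.000522% of counts, was left out. Sheep RefSeq names (ARS-UI_Ramb_v3.0) matched 18733 of 26200 symbols, and all 10 members, and no coordinates were used.

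Genes were filtered with filterByExpr, scaled by TMM and tested in 1 edgeR quasi-likelihood fit of all 3 groups with edgeR 4.0.16 under R 4.3.3. Intervals at 95% use the t quantile of that fit. Log2 CPM carries a prior count of 2, used for the profile likeness. Ratios and shares were tested by two-sided exact permutation tests. The scripts were tested on simulated data. FPKM were used for levels between genes and, as log2(FPKM + 1) with limma 3.58.1, as an alternative, beside DESeq2 1.42.0 on counts. Named genes were all members, the called genes of the partner and collagen lists, up to 4 called genes of each further list, and the 3 nearest profiles of each called member. P4HB, LOX, LOXL1, LDHA, PDK1, the copper carriers and MYH11 were named in addition, after their values were seen. The members, lists and tests were chosen with earlier results of these data known. The native libraries are paired by animal in the labels, and the deviations of an animal's pair from their group means correlated at 0.45 (D6), 0.43 (D5), -0.13 (D4) and -0.18 (D3).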

Additional observations from a re-analysis of the deposited data

Results flagged for a closer look

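In 40 sets of 4 native libraries, 1 library stood far from the other 3 in 2 sets (a gap over 0.829 of the range), and chance marks about 1 set in 20. SERPINH1 had 609.8 CPM in pulmonary sinus replicate 4, against 379 to 409 CPM in the other 3 pulmonary libraries. The log2 ratio of P4HA1 to the summed collagen chains was -6.21 in aortic sinus replicate 4, against -7.51 to -7.31 in the other 3 aortic libraries. Both libraries come from animal D6.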

How the results depend on the processing

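The 3 member comparisons called (P4HA3 in 2, LOXL3 in 1) kept their direction in all 22 alternatives. Against pulmonary sinus 1 member, P4HA3, was called, and DESeq2 called 2 by adding LOXL3. A replicate block by replicate number, fitted on the 2 groups alone, called 0 (P4HA3 2.54, edgeR adjusted p = 0.0681). The animals of the autografts and those of the native tissues share only that number. Against aortic sinus, where 2 were called, 1 was called with no filter on low counts, with run 1 alone, with the 2 groups alone, without animal D3, on FPKM + 1, on FPKM + 0.1 and on FPKM of at least 1, and 0 with the replicate block by number. Leaving out 1 library called 0 to 1. Without pulmonary replicate 1 and autograft replicate 1 together, chosen after seeing the data, 1 was called. Blocking by animal changed no call: voom with a random animal block called 1 and 2, and the native replicate block by animal called 0. Of 27 uncalled member comparisons, 14 changed sign in at least 1 alternative, in 70 of 594 fits. The directions of those 14 are not determined. The remaining uncalled comparisons kept their sign but did not pass the test. The counts of ratios and shares that passed stayed at 0 in every alternative run, but many of these runs could not have passed. In autograft comparisons with 1 library left out, the smallest possible exact p is above 0.05 before adjustment. The same holds for sign flips within the native animals. Those runs therefore say nothing about stability. With 3 autografts, exact tests could not pass adjustment at their smallest p unless many more comparisons reached it together than the 11 ratios and 3 shares that did. The intervals given are not adjusted for the number of genes tested and are not the detection limit of the test. A difference that was not called is not shown to be absent.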
